A study of Mus musculus with 16 samples.

Results

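Of the 52480 regions obtained by merging the ATAC-seq peaks of 12 mouse embryonic stem cell (ESC) libraries, 321 had a peak in every one of the 12 deposited lists, which is 0.612% of all regions. On chromosomes 1 to 19, X and Y, peaks sharing at least 1 bp were joined, and a region was kept when all 12 lists held a peak in it. The members were thus chosen by the presence of called peaks, and their presence in ESCs is no result. ATAC-seq marks open DNA by the insertion of a transposase, and each list gives the places where one library had more insertions than its own background.

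All cells were Rx:GFP knock-in mouse ESCs, a line that carries a green fluorescent reporter at the eye field gene Rx (Rax). The 6 ESC groups were grown in 2i+LIF and comprised Wdr5 and p53 double knockouts (DKO) stably carrying a backbone plasmid, DKO carrying WDR5S91K-Y191F, DKO carrying WDR5WT, the p53 knockout clone C9, the p53 knockout clone H9, and the parental line. The rescue constructs encode human WDR5, and each p53 knockout group is 1 clone. The 2 embryoid body (EB) groups, from SFEBq culture in GMEM with 5% KSR and 2% matrigel, were DKO, whose labels give no day, and parental, labelled day 4. Every group had 2 replicates, and the labels do not say whether these came from separate cultures, so each p-value measures only the spread between these libraries.

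Open regions shared by all states of a cell type are mostly known from promoters. Many mammalian promoters lie in CpG islands, stretches rich in G, C and unmethylated CpG, where factors such as SP and KLF proteins (GC box) and NF-Y (CCAAT box) bind and keep DNA free of nucleosomes. WDR5 holds together COMPASS and MLL enzymes, which methylate histone H3 at promoters, and p53 is a transcription factor activated by stress. Regions of high-copy sequence, such as ribosomal DNA, are a second known class, because reads of many copies gather at the few copies that a genome assembly holds. Lists of such places, called blacklists, are used to remove them.

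The 6 promoters shown here lie wholly inside member regions and belong to the gene end regions with the highest ranks (Peg3, Sp4, Pdcd10, Esyt2) or to gene groups described further on (Cdk4, H4f16). Each runs 5′ to 3′ on the gene's strand, from 250 bases before the RefSeq start to 50 after it (GRCm38.p6, the same assembly as mm10). Capitals mark the CCAAT box (CCAAT), the GC box (GGGCGG) and an ETS site (CCGGAAG) on either strand, so that a box on the other strand appears as its reverse complement. The windows are Peg3 (chr7:6730370-6730669, minus strand), Sp4 (chr12:118301391-118301690, minus strand), Pdcd10 (chr3:75556803-75557102, minus strand), Esyt2 (chr12:116280972-116281271, plus strand), Cdk4 (chr10:127063285-127063584, plus strand) and H4f16 (chr6:136804382-136804681, minus strand).
Peg3: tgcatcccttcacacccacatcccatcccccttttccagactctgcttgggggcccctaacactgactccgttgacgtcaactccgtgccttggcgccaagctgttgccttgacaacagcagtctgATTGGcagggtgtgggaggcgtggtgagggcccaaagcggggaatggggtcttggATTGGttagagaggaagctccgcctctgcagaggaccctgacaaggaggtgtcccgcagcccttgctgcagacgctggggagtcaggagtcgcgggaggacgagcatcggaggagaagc
Sp4: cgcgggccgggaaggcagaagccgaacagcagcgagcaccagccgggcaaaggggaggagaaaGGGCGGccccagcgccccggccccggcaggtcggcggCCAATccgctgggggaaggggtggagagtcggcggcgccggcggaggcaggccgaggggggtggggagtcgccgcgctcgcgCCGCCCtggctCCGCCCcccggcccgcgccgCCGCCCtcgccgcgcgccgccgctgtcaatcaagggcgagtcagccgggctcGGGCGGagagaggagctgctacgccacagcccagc
Pdcd10: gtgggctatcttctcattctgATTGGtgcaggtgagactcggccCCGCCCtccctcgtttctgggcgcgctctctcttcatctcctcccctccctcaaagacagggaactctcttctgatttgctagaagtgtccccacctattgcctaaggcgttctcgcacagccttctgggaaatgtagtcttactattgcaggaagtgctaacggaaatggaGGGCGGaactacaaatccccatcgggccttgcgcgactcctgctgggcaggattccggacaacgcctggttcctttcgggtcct
Esyt2: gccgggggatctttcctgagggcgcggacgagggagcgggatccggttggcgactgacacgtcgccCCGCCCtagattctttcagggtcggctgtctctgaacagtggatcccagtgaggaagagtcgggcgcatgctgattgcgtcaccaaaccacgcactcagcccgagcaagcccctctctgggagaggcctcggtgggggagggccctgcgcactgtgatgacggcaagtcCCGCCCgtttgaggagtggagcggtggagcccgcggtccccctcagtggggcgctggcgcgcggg
Cdk4: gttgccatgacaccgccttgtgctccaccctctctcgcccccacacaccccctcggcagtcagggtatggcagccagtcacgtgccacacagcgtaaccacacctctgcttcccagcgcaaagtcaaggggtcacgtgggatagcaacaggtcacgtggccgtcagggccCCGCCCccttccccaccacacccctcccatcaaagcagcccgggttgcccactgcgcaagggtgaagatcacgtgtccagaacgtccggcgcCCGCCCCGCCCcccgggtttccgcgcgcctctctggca
H4f16: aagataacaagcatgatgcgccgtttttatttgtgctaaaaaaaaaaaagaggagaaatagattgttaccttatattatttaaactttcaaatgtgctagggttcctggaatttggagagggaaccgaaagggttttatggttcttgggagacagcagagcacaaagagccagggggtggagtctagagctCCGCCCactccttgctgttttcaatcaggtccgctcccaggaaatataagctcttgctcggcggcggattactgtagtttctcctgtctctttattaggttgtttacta
The Sp4 window had a GC content of 78.7% and 5 GC boxes, and the Esyt2 window 68.0% with 2 GC boxes. The Peg3 window had 2 CCAAT boxes and no GC box at 61.3% GC, and the Pdcd10 window 1 CCAAT box and 2 GC boxes at 56.0%. The Cdk4 window had 3 GC boxes at 67.0%. The H4f16 window, with 42.7% GC and 1 GC box, had the lowest GC content of all promoters inside member regions.

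The lists differ greatly in length. They held 1535 and 2492 peaks in DKO backbone ESCs, 5174 and 16257 in DKO S91K-Y191F ESCs, 29779 and 32709 in DKO WDR5WT ESCs, 26305 and 31782 in clone C9, 30780 and 31130 in clone H9, and 24367 and 5330 in parental ESCs. Of 10 ESC marker genes, 1 or 2 had a peak at an end in backbone ESCs, in S91K-Y191F replicate 1 and in parental replicate 2, and 7 to 9 in the other 8 lists. Zfp42 was the marker found in all 12. Esrrb had no end peak in any ESC list. Markers of fibroblasts, primitive endoderm, neural cells and streak had end peaks for 0 to 10 of 16 genes in ESC lists and 11 to 13 in EB lists. Peaks stood at an end of Wdr5 in 5 of the 16 lists and of Trp53 in 9, which does not check the deletions, since a peak at a gene end says nothing about its exons. The files hold no read counts, so the depth of each library is unknown.

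Members did not continue the trend of the regions just below them. A region was counted at a gene end where it came within 1000 bp of the start or the end of a protein-coding gene. The share at a gene end was 10.5% for regions in 1 list, 22.1% for 6 lists and 72.2% for 11 lists, but 52.0% for the members, 167 of 321. Over all merged regions it was 24.1%. A peak in all 4 EB lists was found for 23.9% of regions in 1 list, 90.5% of those in 11 lists and 61.4% of members (197 regions), against 48.7% of all regions. A peak in none of the EB lists was found for 46.8% of regions in 1 list, 6.56% in 11 lists and 34.3% of members (110 regions), against 28.2% of all regions. The remaining 14 members had a peak in 1 to 3 EB lists. Median region width was 475 bp for 1 list, 1531 bp for 11 and 1763 bp for members.

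**Figure D1:**
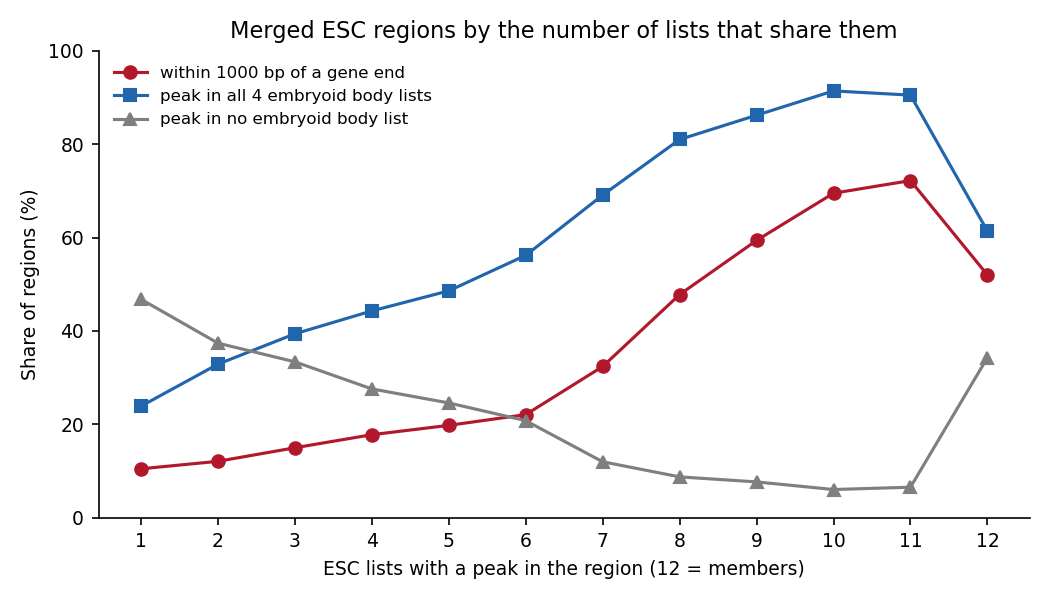
Share of merged ESC regions (y axis, %) that lie at a gene end (within 1000 bp), that have a peak in all 4 EB lists, or that have a peak in none, by the number of ESC lists with a peak in the region (x axis). The gene end share climbs to 72.2% at 11 lists and is 52.0% at 12, while the share in no EB list is 6.56% at 11 and 34.3% at 12.

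The rule's limit was set mainly by the shortest list. Of the 777 regions in 11 lists, 733 lacked a peak only in DKO backbone replicate 1 (94.3%). Another 13 lacked only backbone replicate 2, 9 only parental replicate 2, 7 only C9 replicate 1, and none only parental replicate 1. The 3 with the highest median percentile among the 733 were at Crlf2, a cytokine receptor subunit, at Jun, an AP-1 transcription factor, and at Vegfc, a lymphatic growth factor, at 99.97, 99.92 and 99.89. Here a percentile is the place of a peak by column 7, the authors' signal, within its own list, and the median is over the lists that hold it. Members ranged from 37.1 to 99.996 with a median of 94.9, and the regions in 11 lists ranged from 30.5 to 99.97 with a median of 94.1. Without the requirement for backbone replicate 1, 1054 of the merged regions would be members, 67.6% at a gene end, 83.4% in all 4 EB lists and 13.6% in none. Without both backbone lists, 2255 would be members, 69.6% at a gene end and 8.96% in no EB list. Leaving out any other single list gave 321 to 334.

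The members formed 3 large classes. The first held 156 regions at a gene end with a peak in all 4 EB lists, the second 100 regions away from gene ends with a peak in no EB list, and the third 41 regions away from gene ends with a peak in all 4 EB lists. Another 10 were at a gene end with no EB peak, 13 away with 1 to 3 EB lists, and 1 at a gene end with 1 to 3. Of the 167 members at a gene end, 156 were in all 4 EB lists (93.4%, against 88.6% of all gene end regions), and of the 154 away from gene ends 41 were (26.6%, against 36% of all such regions). Of the 154 members away from gene ends, 120 were over 10 kb and 41 over 100 kb from any protein-coding gene end, and 40 lay inside a gene's span. Within members the 12 summits lay close together: the median distance of a list's summit from the region's median summit was 20.5 bp, and was at most 100 bp in 289 regions (90.0%).

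Peg3 and Usp29, a pair of imprinted genes that share a start region, had the gene end member with the highest median percentile (99.88; chr7:6726943-6730700). Peg3 encodes a zinc finger protein and Usp29 a ubiquitin protease. Its column 7 signal was 566 and 1612 in DKO backbone, 2409 and 6720 in DKO S91K-Y191F, 9486 and 10776 in DKO WDR5WT, 6840 and 8345 in C9, 10536 and 10341 in H9, and 4270 and 1716 in parental ESCs. The 6 lists of WDR5WT, C9 and H9 had the highest signals, and backbone replicate 1 the lowest. The peak was 692 bp wide in backbone replicate 1 and 3736 bp in WDR5WT replicate 2. In EBs the authors' fold enrichment was 3.15 and 3.02 in DKO and 3.02 and 3.12 in parental EBs, so the genotypes overlapped.

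Sp4 encodes a zinc finger factor that binds GC boxes, and its member (chr12:118300599-118303208) contains the promoter with 5 GC boxes shown above. Its signal was 365 and 1049 in DKO backbone, 2403 and 5047 in DKO S91K-Y191F, 8148 and 8706 in DKO WDR5WT, 7004 and 7699 in C9, 7938 and 8272 in H9, and 5108 and 2292 in parental ESCs. Again WDR5WT, C9 and H9 were above the other 6 lists. EB fold was 4.28 and 4.39 in DKO and 4.44 and 4.71 in parental EBs, so both DKO values were below both parental values. With 2 libraries a side no test can pass a threshold of 0.05.

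The region shared by Pdcd10, an adaptor of STE20-type kinases, and Serpini1, a neuronal serine protease inhibitor (chr3:75555862-75558010), had a signal of 755 and 1312 in DKO backbone, 1992 and 4280 in DKO S91K-Y191F, 6224 and 6586 in DKO WDR5WT, 5814 and 6371 in C9, 6846 and 7239 in H9, and 4461 and 1879 in parental ESCs. As for Peg3 and Sp4, the WDR5WT, C9 and H9 lists were above the other 6. Esyt2, which tethers the endoplasmic reticulum to the plasma membrane, Cep170 and Sdccag8, both of the centrosome, and Zbtb20, a transcriptional repressor, complete the gene end members among the 12 highest, with median percentiles of 99.82, 99.78 and 99.66. Column 7 has no stated scaling between libraries, so signals set side by side here and further on describe the deposited values only, and only ranks within a list and widths were tested between lists.

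Members at gene ends touched 202 of 21887 protein-coding genes (0.923%), against 59.2% for any ESC region. Of 591 genes in 19 lists covering housekeeping, cell cycle, pluripotency and lineage functions, 7 had a member at an end (1.18%), close to the background. These were Cdk2, Cdk4 and Gins2 of 51 cell cycle and replication genes, Rps29 of 79 ribosomal protein genes, Hspa8 of 28 chaperones, H4f16 of 36 canonical histone genes and Zfp42 of 30 naive and core pluripotency genes. The other 14 lists, which include translation, splicing, proteasome, respiratory chain, COMPASS, p53 target and all lineage lists, had none. That count does not say these genes were closed: some ESC region stood at an end of 97.7% of translation factor, 96.2% of splicing factor, 94.9% of ribosomal protein and 86.4% of COMPASS and MLL genes.

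Cdk2 and Cdk4 encode kinases of the G1 and S phases, and the members counted for them differed in rank. The member counted for Cdk2 (chr10:128695616-128697180) came within 1000 bp of ends of Rab5b, Pmel and Cdk2. Its nearest gene end was that of Rab5b, and it held 1 whole promoter window, so a peak there cannot be assigned to Cdk2. This region had a median rank among the 321 members of 62.1. The region at Cdk4 had one of 22.3, where 100 is the highest of the 321. Cdk4 signal was 238 and 273 in DKO backbone, 433 and 700.0 in DKO S91K-Y191F, 1091 and 1565 in DKO WDR5WT, 717 and 863 in C9, 1287 and 1398 in H9, and 1459 and 655 in parental ESCs. Its rank among members was between 4.36 and 31.2 in all lists, so it was one of the lower members everywhere. Hspa8, the constitutive HSC70 chaperone, ranked between 14.6 and 61.1, and Gins2, a subunit of the replicative helicase, between 11.2 and 67.0. The Rps29 region also holds Rn7s1, a signal recognition particle RNA gene, so that a peak there cannot be assigned to 1 of the 2.

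Zfp42 encodes REX1, a marker of naive pluripotency, and its promoter (chr8:43306462-43307581) was the only one of 10 ESC marker promoters in all 12 lists. Its signal was 236 and 572 in DKO backbone, 975 and 1803 in DKO S91K-Y191F, 1983 and 2122 in DKO WDR5WT, 2170 and 2535 in C9, 2167 and 2475 in H9, and 1598 and 635 in parental ESCs. EB fold was 6.79 and 6.71 in DKO EBs, below the 7.82 and 8.43 in parental EBs. A further member, 13496 bp from the nearest protein-coding gene end (chr8:43320505-43321736), had an EB fold of 4.34 and 4.75 in DKO and 6.11 and 4.75 in parental EBs, so that the genotypes overlapped.

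Promoters inside members were richer in G and C than promoters in general. Of 21238 RefSeq promoter windows (17469 genes, none from chromosome 18), 189 windows of 164 genes lay wholly inside a member. Their median GC content was 64.3%, against 56.3% for all windows, and 86.2% had an observed to expected CpG ratio over 0.6, against 47.6% of all. Windows inside regions of 11 lists had the same median GC content of 64.3% and an 89.2% share, so this feature is not particular to the members. The GC box stood in 83.1% of member windows, 77.3% of windows in regions of 11 lists and 46.2% of all windows. CCAAT stood in 56.1%, 51.8% and 38.2% of these 3 sets, and CCGGAAG in 19.6%, 20.6% and 11.6%. TATAAA stood in 3.17% of member windows and 12.6% of all windows, and the octamer ATTTGCAT in 0.529% and 1.66%. Motifs were searched on both strands and can overlap, and a match is a description of the letters only. Of 165 gene end members outside chromosome 18, 135 held a whole promoter window (81.8%, against 56.3% of all gene end regions). Windows on both strands were held by 19 (11.5%, against 16.1% of gene end regions in 11 lists and 5.57% of all gene end regions). Of 151 members away from gene ends outside chromosome 18, 10 held a whole promoter window (6.62%). Members away from gene ends are thus not all away from promoters. No share over all regions away from gene ends is given beside this count.

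Members away from gene ends with a peak in all 4 EB lists had a median percentile of 94.3 over the ESC lists. The highest, nearest to Zfp958 at 43976 bp (chr8:4676548-4679434), had a median percentile of 99.60 and an EB fold of 5.05 in DKO EB replicate 1. Those at Cetn3, a centrin of the centrosome, and Arrdc3, an arrestin family adaptor, lay 1904 and 1725 bp from a gene end and inside the gene, just beyond the limit for a gene end. Those nearest to Anxa10 and Fam98a were 293942 and 947870 bp from any protein-coding gene end. Apart from Zfp958, these were chosen after their values were seen, as the highest or most distant of the class.

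The very highest members by median percentile were in the class away from gene ends and absent from the EB lists. That class holds 100 of the 154 members away from gene ends (64.9%, against 35.1% of all merged regions away from gene ends). Its median percentile was 86.3, below the 97.6 of gene end members in all 4 EB lists. The EB lists had blacklisted regions removed by the authors, per their names, and for such a region absence of a peak and removal cannot be told apart. The region with the highest median percentile (chr17:39842940-39848888) overlaps Rn18s-rs5, a copy related to 18S ribosomal RNA, and the transcript AY036118, and lies 101632 bp from Esp38, the nearest protein-coding gene. Its signal was 42070 and 44929 in DKO backbone, 47790 and 48788 in DKO S91K-Y191F, 54370 and 57978 in DKO WDR5WT, 53667 and 52359 in C9, 49335 and 47325 in H9, and 48493 and 48598 in parental ESCs. Its rank among members was 99.4 to 100 in all 12 lists, and its width was 5940 to 5948 bp in all of them.

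Other members of this class had deposited values that fell into 2 sets of lists. The widest member, of 29220 bp (chr9:3009161-3038380, 296851 bp from Alkbh8), had a signal of 93394 and 86575 in DKO backbone, 131586 and 90476 in DKO S91K-Y191F, 596 and 442 in DKO WDR5WT, 610 and 632 in C9, 727 and 588 in H9, and 117516 and 118206 in parental ESCs. Its rank among members was 99.7 to 100 in the backbone, S91K-Y191F and parental lists and 4.05 to 16.8 in the WDR5WT, C9 and H9 lists. In the WDR5WT, C9 and H9 lists the peak in it was 288 to 344 bp wide, and in the other lists 18810 to 29214 bp. Its neighbour (chr9:3005519-3008895) showed the same division, with 11312 to 13728 in backbone, S91K-Y191F and parental lists and 257 to 341 in WDR5WT, C9 and H9 lists, at ranks of 96.0 to 97.2 and 1.56 to 2.80. The region 23560 bp from Col19a1 (chr1:24611482-24616229), which overlaps the pseudogenes Gm10222 and Gm10925, had 85815 and 97859 in DKO backbone, 102668 and 121348 in DKO S91K-Y191F, 6302 and 1414 in DKO WDR5WT, 16185 and 15090 in C9, 17100 and 22512 in H9, and 140856 and 116806 in parental ESCs. Its rank among members was 99.7 to 100 in the backbone, S91K-Y191F and parental lists. It was 97.5 and 28.3 in WDR5WT and 99.4 in the C9 and H9 lists. The 2 sets thus did not overlap in rank, but apart from WDR5WT replicate 2 they lay close together. The larger of the pair over 1 Mb from Lrrc4c (chr2:98666177-98667388) had 28247 to 30446 in backbone, S91K-Y191F and parental lists and 10009 to 10948 in WDR5WT, C9 and H9 lists, but its rank among members was 98.1 to 99.4 in all 12. The division in rank of the 2 regions near Alkbh8 sets the DKO backbone, DKO S91K-Y191F and parental lists apart from the DKO WDR5WT, C9 and H9 lists. Both regions were named for their wide range of rank, and they are neighbours. Parental cells have wild-type WDR5, as do the cells of the other set. The cause of the division was not tested.

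The class as a whole showed that division. Its median rank among the 321 members was 82.7 and 82.1 in DKO backbone, 81.8 and 51.6 in DKO S91K-Y191F, 23.2 and 22.6 in DKO WDR5WT, 22.9 and 22.4 in C9, 23.1 and 21.3 in H9, and 52.0 and 82.7 in parental ESCs. The class of gene end members found in all EB lists had 34.1 and 40.2 in DKO backbone, 46.0 and 54.4 in DKO S91K-Y191F, 67.4 and 69.9 in DKO WDR5WT, 64.6 and 63.9 in C9, 67.9 and 68.2 in H9, and 54.0 and 42.2 in parental ESCs. Of the 100 highest members of a list, 76 and 70 were in the class without EB peaks in backbone lists, and 9 to 18 in WDR5WT, C9 and H9 lists. In the lists of 16257 (S91K-Y191F replicate 2) and 24367 peaks (parental replicate 1) the 2 classes were at like medians, and in the 4 shorter lists the class without EB peaks was the higher. As an order among the 321, a higher place of one class has to lower another. The WDR5WT, C9 and H9 lists are also the 6 longest, and the part of list length was not tested. The rank order of the 321 was similar among the 6 lists of WDR5WT, C9 and H9 (Spearman's rho 0.900 to 0.984 over the 321 regions for 15 pairs of lists), less so among the other 6 (0.245 to 0.819 for 15 pairs), and across the 2 sets it was -0.280 to 0.531 (36 pairs). These are descriptions across regions that share libraries and peak width, not tests.

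Not every member of the class followed that division, and the regions near Samd9l and Pex2 did not. The region 187962 bp from Samd9l (chr6:3182000-3184295) had a signal of 824 and 1175 in DKO backbone, 1270 and 2576 in DKO S91K-Y191F, 5753 and 6244 in DKO WDR5WT, 4557 and 4873 in C9, 5406 and 5414 in H9, and 3786 and 1548 in parental ESCs at ranks of 68.2 to 96.0. The region 281678 bp from Pex2, a peroxisome assembly gene (chr3:5860274-5860991), had 2813 and 3152 in DKO backbone, 3620 and 3726 in DKO S91K-Y191F, 4039 and 4400.0 in DKO WDR5WT, 3776 and 3931 in C9, 3484 and 3418 in H9, and 3713 and 3662 in parental ESCs at ranks of 70.1 to 90.3. The region 3443 bp from Gm40363 (chr6:47741769-47754461) had the widest range of rank of all members, from 0.312 to 97.5, with 16988 and 11882 in DKO backbone, 13086 and 6139 in DKO S91K-Y191F, 442 and 558 in DKO WDR5WT, 384 and 220 in C9, 353 and 340 in H9, and 4646 and 6498 in parental ESCs. Its rank was 90.7 to 97.5 in the backbone, S91K-Y191F and parental lists. It was 0.312 to 8.10 in the WDR5WT, C9 and H9 lists, with no overlap, so this region followed the division. Gpr108, which encodes a membrane protein of the secretory pathway, was the gene end member among the 5 with the widest range of rank, from 4.36 to 97.2, with a signal of 208 and 756 in DKO backbone, 993 and 2638 in DKO S91K-Y191F, 4292 and 4634 in DKO WDR5WT, 4078 and 4227 in C9, 4590 and 6816 in H9, and 3186 and 872 in parental ESCs. Backbone replicate 1 set the low end of that range and H9 replicate 2 the high end.

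**Figure D2:**
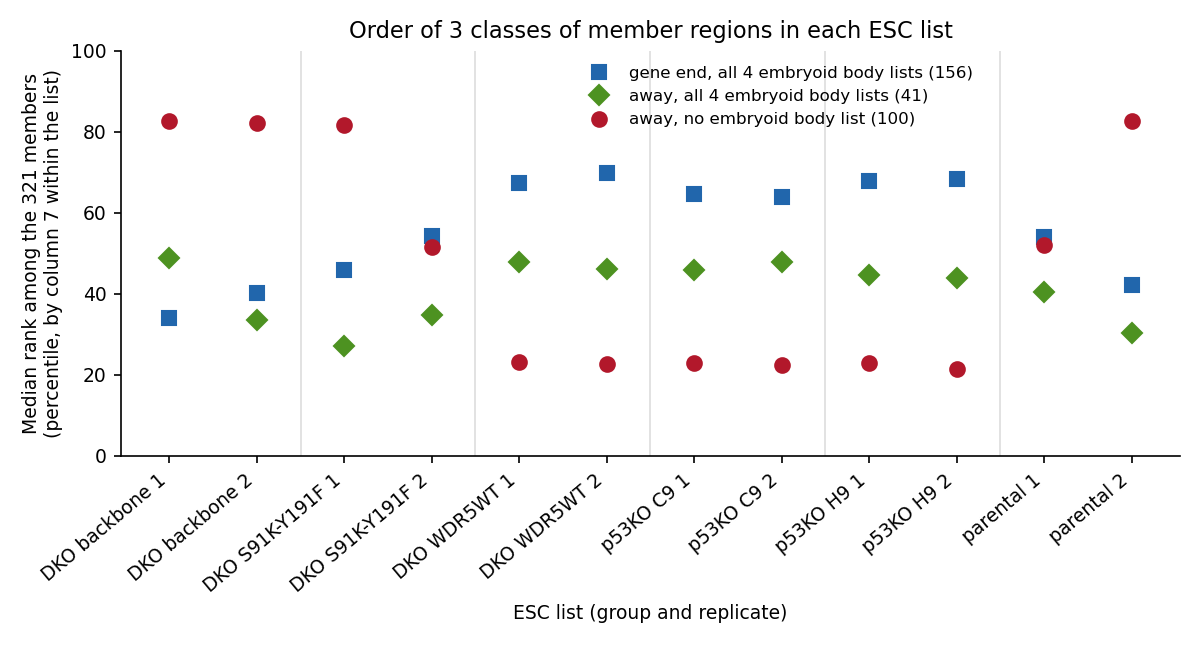
Median rank among the 321 members (y axis, percentile by column 7 within the list) of 3 classes of member regions in each of the 12 ESC lists (x axis). Regions away from gene ends with no EB peak stand at 51.6 to 82.7 in the backbone, S91K-Y191F and parental lists and at 21.3 to 23.2 in the WDR5WT, C9 and H9 lists.

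Of these 100 regions, 16 overlapped a pseudogene, 6 a transcribed pseudogene and 17 a long noncoding RNA gene, against 1, 0 and 22 of the 156 gene end members in all EB lists. No share over all merged regions is given beside these counts, so they do not show a trait particular to the class. The 10 members at a gene end but in no EB list stood at Hjurp, a histone chaperone of centromeres, at Lars2, the mitochondrial leucyl-tRNA synthetase, at Xpo1, a nuclear export receptor, at Duxf3 of the Dux family, at Fcgr3, where the region also covers 2 tRNA genes and Mir6546, and at 4930467E23Rik, Gm52481, LOC100504180, Gm3248 and Gm40369. Duxf3 and LOC100504180 are neighbours on chromosome 10 (chr10:58230805-58232998 and chr10:58221292-58227123). The 5 lowest members by median percentile, at 37.1 to 47.9, were nearest to Gm51877, LOC115488283, Zfp978, 1700001F09Rik and Gm3667, and 4 of them had no EB peak. Duxf3 belongs to a repeated family, and reads from its near-identical copies may be placed on any of them, so this peak is uncertain.

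Chromosome 8 held 80 of the 321 members (24.9%), against 8.89% of all merged regions and 14.3% of regions in 11 lists. It held 45 of the 167 gene end members (26.9%, against 6.47% of all gene end regions), and 44 of the 156 that were also in all EB lists. The chromosome with the next most members was 12, with 6.85%. The share of a list's own peaks on chromosome 8 was 28.6 and 23.3% in DKO backbone, 16 and 10.4% in DKO S91K-Y191F, 8.86 and 8.73% in DKO WDR5WT, 9.78 and 9.69% in C9, 9.01 and 8.96% in H9, and 6.25 and 11.1% in parental ESCs. The share was thus highest in the 2 shortest lists, and the 2 parental lists spanned most other values. Without the requirement for backbone replicate 1 the chromosome 8 share of members would be 16.6%, and without both backbone lists 10.6%, near that of all regions. The part of list length in this share was not tested.

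**Figure D3:**
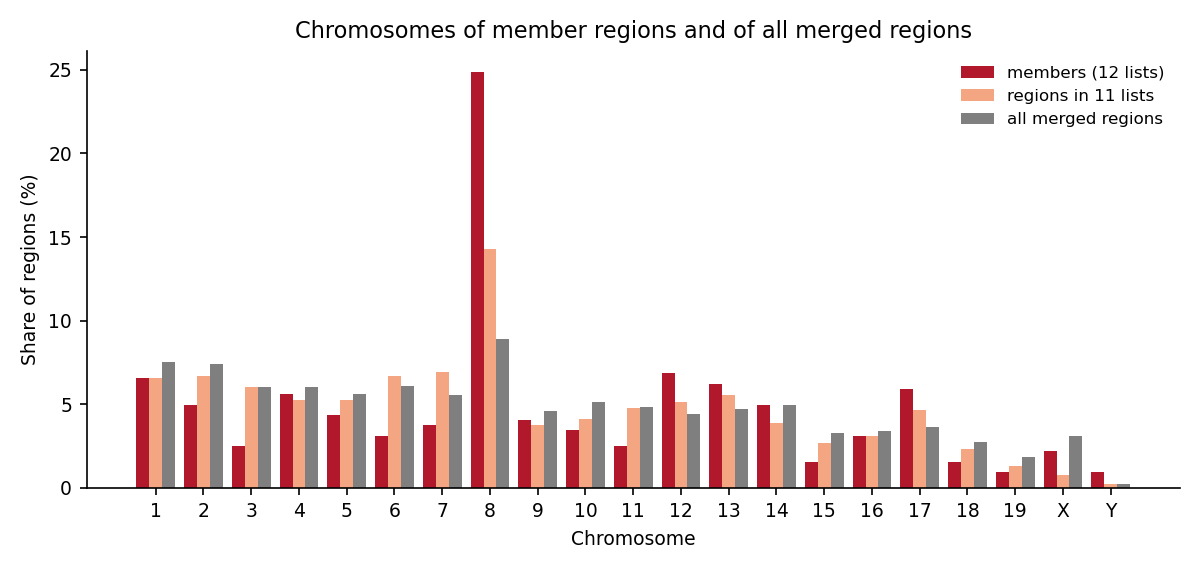
Share of regions on each chromosome (y axis, %; x axis, chromosome) for the 321 members, the 777 regions in 11 lists and all 52480 merged regions. Chromosome 8 has 24.9% of members, 14.3% of regions in 11 lists and 8.89% of all regions.

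Some members crowded together. Taking windows of 1 Mb with at least 5 members as dense, 5 windows held 39 members, and 4 of these windows with 31 members were on chromosome 8. The window with the most (chr8:20000001-21000000) had 15, none at a gene end and 13 in no EB list, among them regions near Defa21 and Defb33, genes of defensins, which are antimicrobial peptides. The next (chr12:115000001-116000000) had 8, near Zfp386. Another (chr8:72000001-73000000) had 6, all at gene ends and all in all 4 EB lists, at Ap1m1, Eps15l1, Med26, Rab8a, Slc35e1 and Tmem38a. Of these, Ap1m1, Eps15l1 and Rab8a act in membrane traffic and Med26 is a subunit of Mediator. Dense windows thus came in both kinds, with and without EB peaks.

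Most members that were open in one EB genotype were open in the other. Peaks covered 63.6 and 64.5% of members in the DKO EB lists (64.0 ± 0.661%, SD, n = 2), and 63.2 and 62.3% in the parental EB lists (62.8 ± 0.661%, SD, n = 2). The difference was 1.25 percentage points, and the exact two-sided permutation test gave p = 0.333, the smallest p that 2 lists against 2 allow. Members at gene ends had a peak in 93.4 and 94.0% of cases in DKO EBs and in 94.0% in both parental EB lists. Members away from gene ends had one in 31.2 and 32.5% in DKO EBs and 29.9 and 27.9% in parental EBs. The median percentile of member peaks by fold within an EB list was 91.5 and 89.0 in DKO EBs and 90.3 and 91.2 in parental EBs, with a difference of -0.463 (exact two-sided permutation p = 1). The median fold of member peaks was 5.18 and 5.37 in DKO EBs and 5.52 and 5.60 in parental EBs, against 3.49, 3.66, 3.46 and 3.54 over all peaks of these lists.

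A few members were found in 1 EB genotype. A peak in DKO EBs only was found for 7 members, 3 of them in both DKO lists, and a peak in parental EBs only for 2, each in 1 list. Outside the dense windows, those in DKO EBs only lay nearest to Sap30, a subunit of the SIN3 histone deacetylase complex (1289 bp), Csmd1, Zeb2, Rarb and Cdh8, and among these the one near Zeb2, at 1611950 bp, was in both DKO lists. One in parental EBs only lay nearest to Tbl1xr1, a corepressor subunit. All of these named regions were away from gene ends.

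Set beside the 19891 regions in 6 to 11 ESC lists, members less often had a peak in the EB lists. Blacklisted regions had been removed from the EB lists, and for such regions absence of a peak and removal cannot be told apart. The share with a peak was 63.6 against 81.2% in DKO EB replicate 1, 64.5 against 85.1% in DKO EB replicate 2, 63.2 against 79.9% in parental EB replicate 1 and 62.3 against 77.1% in parental EB replicate 2. The mean difference was -17.4 percentage points, lower for members in 4 of 4 lists, and the exact sign-flip permutation test over the 4 libraries gave p = 0.125, the smallest it allows. The difference was -2.49 points for gene end regions alone and -39.7 points for regions away from gene ends, both chosen after seeing the data, and both lower in 4 of 4 lists (exact p = 0.125 each). It rested on 1 library: with DKO backbone replicate 1 left out the difference was 2.66 points in the other direction (exact p = 0.25).

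**Figure D4:**
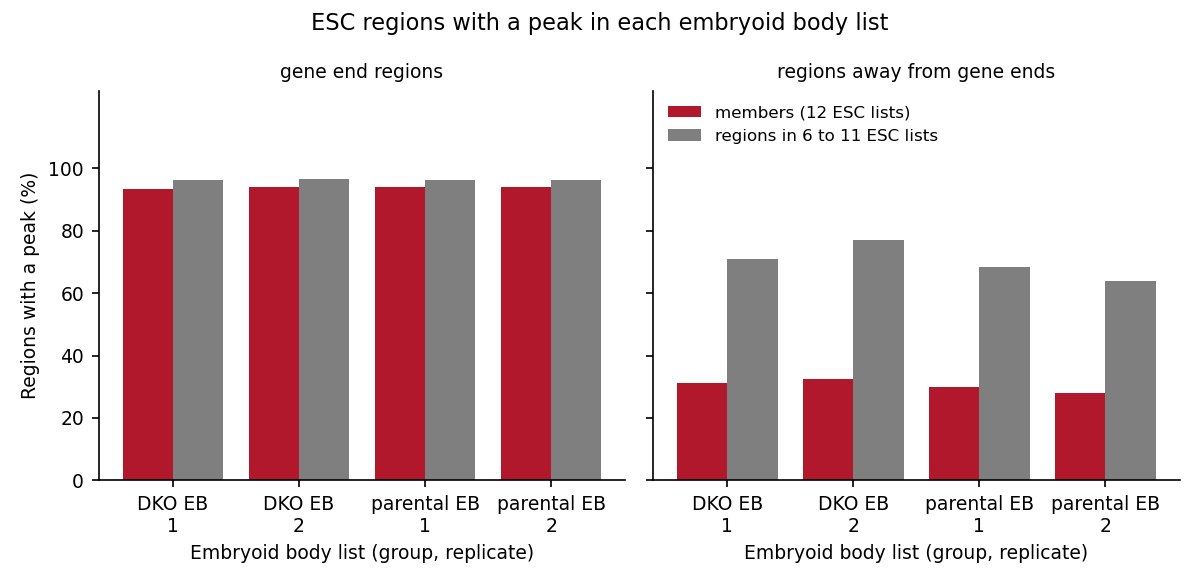
Share of ESC regions with a peak in each EB list (y axis, %; x axis, list), for the 321 members and for regions in 6 to 11 ESC lists, at gene ends (left) and away from them (right). At gene ends members have 93.4 to 94.0%, and away from gene ends members have 27.9 to 32.5%, below the other regions in every list.

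The order of members within a list was compared between lists without and with wild-type WDR5. The 4 without it were DKO backbone and DKO S91K-Y191F, and 8 had it. The rule used presence and not order, but both rest on the same peaks. DKO backbone replicate 1, a list without wild-type WDR5, mainly set the rule's limit: 733 of 777 regions lacking a single list lacked it. In that list, gene end members had a median percentile of 30.6 and members away from gene ends 68.1. The part of this choice of members in a lower gene end rank was not tested. Gene end members outside dense windows had a median rank among members of 35.7 and 41.6 in DKO backbone, 48.0 and 57.0 in DKO S91K-Y191F, 67.4 and 69.9 in DKO WDR5WT, 65.0 and 64.6 in C9, 67.9 and 68.2 in H9, and 56.5 and 45.6 in parental ESCs. The lists without wild-type WDR5 averaged 45.6 ± 9.14 (SD, n = 4) and those with it 63.2 ± 8.18 (SD, n = 8), a difference of -17.6 (exact two-sided permutation test over libraries, p = 0.0101, adjusted p = 0.0182 over 2 comparisons). The groups overlapped, since both parental lists lay below S91K-Y191F replicate 2. Among the backbone, S91K-Y191F and parental lists alone the difference was -5.53 (exact permutation p = 0.6; the smallest possible is 0.0667). With the replicates averaged to 6 groups, the difference of -17.6 gave an exact permutation p of 0.133. Without DKO backbone replicate 1, which makes 1054 regions members, the difference was -7.11 (exact permutation p = 0.0182), and with peaks ranked by signal per base it was -8.61 (exact permutation p = 0.0182).

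The median width of peaks over all members was also lower in lists without wild-type WDR5, but this did not hold for every class. Median width was 563 and 738 bp in DKO backbone, 885 and 1157 bp in DKO S91K-Y191F, 1225 and 1223 bp in DKO WDR5WT, 1119 and 1118 bp in C9, 1204 and 1209 bp in H9, and 1179 and 834 bp in parental ESCs. The means were 836 ± 251 bp without (SD, n = 4) and 1139 ± 130 bp with wild-type WDR5 (SD, n = 8), a difference of -303 bp (exact two-sided permutation p = 0.0182, adjusted p = 0.0182). For gene end members in all EB lists the class medians averaged 816 bp without and 1346 bp with wild-type WDR5. For members away from gene ends with no EB peak the direction was opposite, at 1076 and 724 bp. Without backbone replicate 2 the exact permutation p was 0.0606, with only the better 50% of peaks per list (by p) the difference was -65.4 bp (exact p = 0.598), among the backbone, S91K-Y191F and parental lists alone the difference was -171 bp (exact p = 0.467), and over 6 group averages the exact p was 0.133. The part of list length, or of the choice of members, in either measure was not tested. List length and WDR5 state cannot be told apart for backbone cells, whose 2 lists are the 2 shortest.

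**Figure D5:**
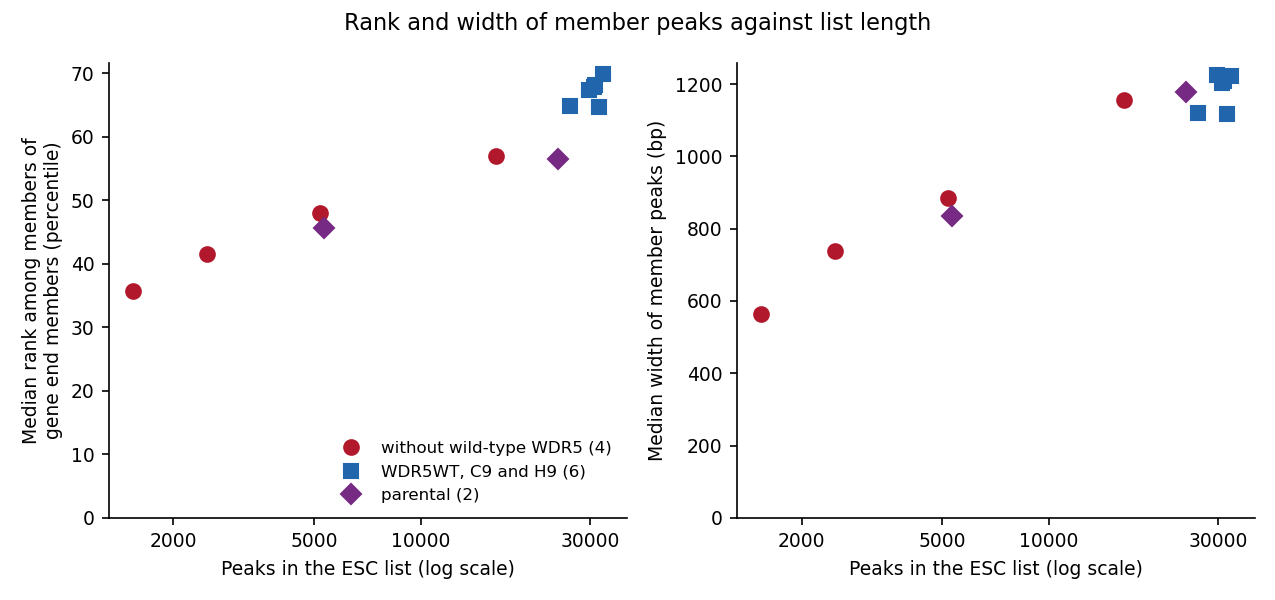
Median rank among members of gene end members (left, percentile) and median width of member peaks (right, bp) against the number of peaks in the list (x axis, log scale), 1 point per ESC list. Lists without wild-type WDR5 run from 35.7 to 57.0 and from 563 to 1157 bp, and the parental lists have ranks of 56.5 at 24367 peaks and 45.6 at 5330 peaks.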

How the data were processed

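ATAC-seq used transposition at 37C for 30 min, per the labels' protocols. The submitters' processing notes name build mm10 and, without roles, DESeq2, MACS2 2.1.2, Genrich 0.6, SAMtools and Bowtie2 2.3.5; the caller of the ESC lists is not given in the sources used here. In the deposited ESC lists, called per library, column 7 is a signal never under 200 that grows with width, column 5 is the authors' score (column 7 over width times 1000, within 1, capped) and column 8 is −log10 p. In the deposited EB lists, column 7 is the authors' ratio (fold enrichment), and blacklisted regions had been removed. The lists give no counts, so no counting intervals are possible.

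An EB peak counted with 1 bp of overlap. Where a list had several peaks in a region, the strongest gave signal and percentile and the widest the width. Gene ends came from 21887 protein-coding genes of a RefSeq table without strand (GRCm38.p6), and promoters from RefSeq. Tests were exact permutations over libraries with Benjamini-Hochberg adjustment, in Python 3.11.15 with NumPy 2.4.6, pandas 2.3.3 and SciPy 1.17.1, and were checked on simulated lists. Members, gene lists and tests were chosen with earlier results of these data known. Named regions are the 12 highest and 5 lowest by median percentile outside dense windows, up to 4 genes per gene list, up to 8 over 10 kb from genes and 8 without EB peaks, those in EBs of 1 genotype, the 5 with the widest and 5 with the narrowest range of rank, and up to 3 per missing list. Alternatives covered joining, list length, the authors' p, chromosomes, gene end windows, EB overlap, a replicate block and leaving out each list. One region named by this rule is not reported here.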

Additional observations from a re-analysis of the deposited data

Results flagged for a closer look

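On unplaced and random sequences, which the regions above leave out, 6 of 80 merged regions had a peak in all 12 ESC lists. No library serves as a control for them. Among the 8 ESC lists with wild-type WDR5, parental replicate 2 stood apart in the median width of member peaks, at 834 bp, against 1118 to 1225 bp in the other 7; this list holds 5330 peaks and the others 24367 or more. Among sets of this kind chance alone flags about 1 in 20.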

How the results depend on the processing

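Of 207 values under alternatives, 183 kept their direction and side of the threshold of 0.05, or for counts stayed within 1.5 times. With the upper 50% of each ESC list by the authors' p there were 104 members, 38 at a gene end and 41 in all 4 EB lists, 45 genes with a member at an end, and a width difference of -65.4 bp. With all lists at the length of the shortest there were 114 members, 86 at a gene end and 96 in all 4 EB lists, and 107 genes; both settings hold fewer peaks by construction. Leaving out both DKO backbone lists, chosen after seeing the data, gave 2254 members when the other 10 lists were merged alone, 1569 at a gene end, 1998 in all 4 EB lists and 1934 genes. Leaving out 1 list at a time gave 321 to 1054 members, 166 to 712 at a gene end, 196 to 879 in all 4 EB lists and 200 to 894 genes, with the highest values all without DKO backbone replicate 1. Leaving out lists moved the EB share of members minus that of regions in 6 to 11 lists between -20.3 and 2.66 points, reversed without DKO backbone replicate 1, and the EB percentile difference (DKO minus parental) between -1.68 and 0.752, reversed without DKO EB replicate 2; the cause was not tested. The width difference ran from -408 to -268 bp. Within backbone, S91K-Y191F and parental lists the rank difference was -5.53 and the width difference -171 bp, and over 6 group averages, chosen after seeing the data, -17.6 and -303 bp, with no p at or under 0.05. Same-numbered libraries did not deviate together (r = 0.0101 over 197 members for EBs, and -0.551 to 0.175 for pairs of ESC groups). With 2 replicates per group of unlike list length, this check cannot exclude that the numbers pair them. With a replicate block the rank difference of -17.6 had an exact p of 0.0133, the width difference of -303 bp 0.0267, and the EB share difference of 1.25 points 0.5; no call changed. There were 282 members without dense windows and 241 without chromosome 8 (added after seeing the data). Peak lists without counts cannot show whether a region missing from a short list was closed or too thinly covered to be called, and 2 libraries per EB group cannot pass the threshold.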
